A study of Homo sapiens with 4 samples.

Results

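The genes examined here are 37 members of the amino acid response that the transcription factor ATF4 directs, together with the cytosolic aminoacyl-tRNA synthetases. They were taken by gene symbol from a list, and all 37 are found among the 23217 symbols of the deposited table. Of these, 19 are regulators, transporters and enzymes and 18 are synthetases, 12 usually listed as ATF4 targets and 6 usually not. The cells were LV-M100, a clonal low-variability subline of the human breast cancer line MDA-MB-231, so that all values describe 1 clone, grown in DMEM with serum, glutamine and pyruvate. They had been transfected by lipofection with siRNAs and were harvested 48 h later, and RNA depleted of ribosomal RNA was sequenced. In the siSNRNP40 condition 1 library received siRNA #1 against SNRNP40, which encodes a protein of the spliceosomal U5 particle, and the other received siRNA #2. In the siControl condition 1 library received the negative control NC1 and the other the BLOCK-iT Fluorescent Oligo.

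The table gives a single value per transcript for each condition, in FPKM (fragments scaled to the length of the transcript and to the mapped fragments of the library), pooled over the 2 libraries of that condition. The FPKM values therefore come without a replicate error, no difference was tested here, and the sequencing depth is unknown. In such bulk RNA, fewer cells that express a gene and less of its RNA per cell cannot be told apart. FPKM was summed over all transcripts of a gene, and differences are given as log2 fold changes of siSNRNP40 over siControl without a pseudocount, so that a negative value is lower after SNRNP40 depletion. Genes were kept when their FPKM averaged 1 or more over both conditions, which left 12334 genes and 34 of the 37 members. PHGDH, CHAC1 and STC2 were below this level.

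ATF4 is the effector of the integrated stress response. When amino acids run short or the endoplasmic reticulum is stressed, kinases phosphorylate the initiation factor eIF2, general translation falls, and ATF4 mRNA is translated more through its upstream open reading frames, so that ATF4 activity is controlled largely apart from the level of its mRNA. The protein then pairs with other bZIP factors and raises genes for amino acid uptake, for synthesis of asparagine, serine and glycine, and for the charging of tRNAs. It binds composite C/EBP-ATF response elements, whose core reads TGATGNAA.

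This core was searched on both strands of the RefSeq promoter windows (GRCh38.p14), which run from 250 bases before to 50 bases after each start site. Windows exist for 30 members, and SLC7A11, PSPH, SHMT2, LARS, YARS, VARS and DARS have none. The core was found in windows of 7 of 10 synthetases usually listed as ATF4 targets, of 0 of the 4 other member synthetases, and of 1 of 14 mitochondrial synthetases. Over all 27305 genes with a window, 4.46% held it. Among the remaining members it was found in ASNS, CHAC1, ATF3, SLC3A2 and SLC7A1. The listing of genes as ATF4 targets may itself rest on such sites, so these shares are no independent support for it. Of the 7 synthetases with the core, the sites of GARS and NARS read TTTCATCA and TGATGCAA. The stretches around the sites of the other 5, which all read TTGCATCA, and of ASNS are shown. They read 5′ to 3′ along the gene, with the core in capitals, as its reverse complement where it lies on the opposite strand.
AARS: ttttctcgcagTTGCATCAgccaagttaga
CARS: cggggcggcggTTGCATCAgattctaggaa
IARS: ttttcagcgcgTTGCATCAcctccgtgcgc
MARS: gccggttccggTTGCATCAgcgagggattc
TARS: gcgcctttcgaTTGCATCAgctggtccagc
ASNS: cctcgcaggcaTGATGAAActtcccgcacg

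In GRCh37, which has the coordinates of the hg19 build of the table, these stretches match at chr16:70323578-70323607 for AARS, chr11:3078637-3078666 for CARS, chr9:95055974-95056003 for IARS, chr12:57881836-57881865 for MARS, chr5:33441062-33441091 for TARS and chr7:97501770-97501799 for ASNS. AARS, CARS, IARS and ASNS lie on the minus strand. With the start site as position 0, the first base of the core lies at -68 in ASNS, which encodes asparagine synthetase, and at -187 in AARS. It lies at -2 in CARS, -13 in IARS, -4 in MARS and 2 in TARS. The first 5 stretches share the same 8 capitals, which follows from the choice of the stretches shown. The ASNS core is in the other orientation, as in NARS. It also has another base at the N of the core, as in GARS. A match describes letters in a window and not binding, which was not measured.

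SNRNP40 had an FPKM of 40.4 in siControl and 6.12 in siSNRNP40. The 4 markers expected of MDA-MB-231 (VIM, CD44, AXL and CAV1) had mean FPKM values from 120 to 742, with CAV1 at a log2 fold change of -0.53. ESR1, PGR and CDH1 were below an FPKM of 0.1, whereas EPCAM was at 10.3. Of 4 markers of blood, T cells, endothelium and fibroblasts, PECAM1 alone reached a mean FPKM of 1, and PTPRC was listed at 0.

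After SNRNP40 depletion most of the members had lower FPKM than in siControl. Of the 34 past the filter, 28 were lower and 6 higher, while 49.5% of all 12334 genes were lower. Their median log2 fold change was -0.22, compared with 0.0034 over all genes. A log2 fold change below -0.5 was found for 5 members (ASNS, PSAT1, DDIT4, SLC7A11 and SLC7A5), against 5.06% of all genes, and 1 member, ATF3, was above 0.5, against 5.24% of all genes. Among genes averaging 10 FPKM or more, 5 of 29 members and 2.99% of all genes were below -0.5. The threshold of the study, an absolute log fold change of 1, was set for transcripts and is applied here to gene sums. No member past the filter exceeded an absolute log2 fold change of 1, which 1.47% of all genes exceeded. The differences in the gene sums of the members were therefore small and mostly in one direction.

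**Figure D1:**
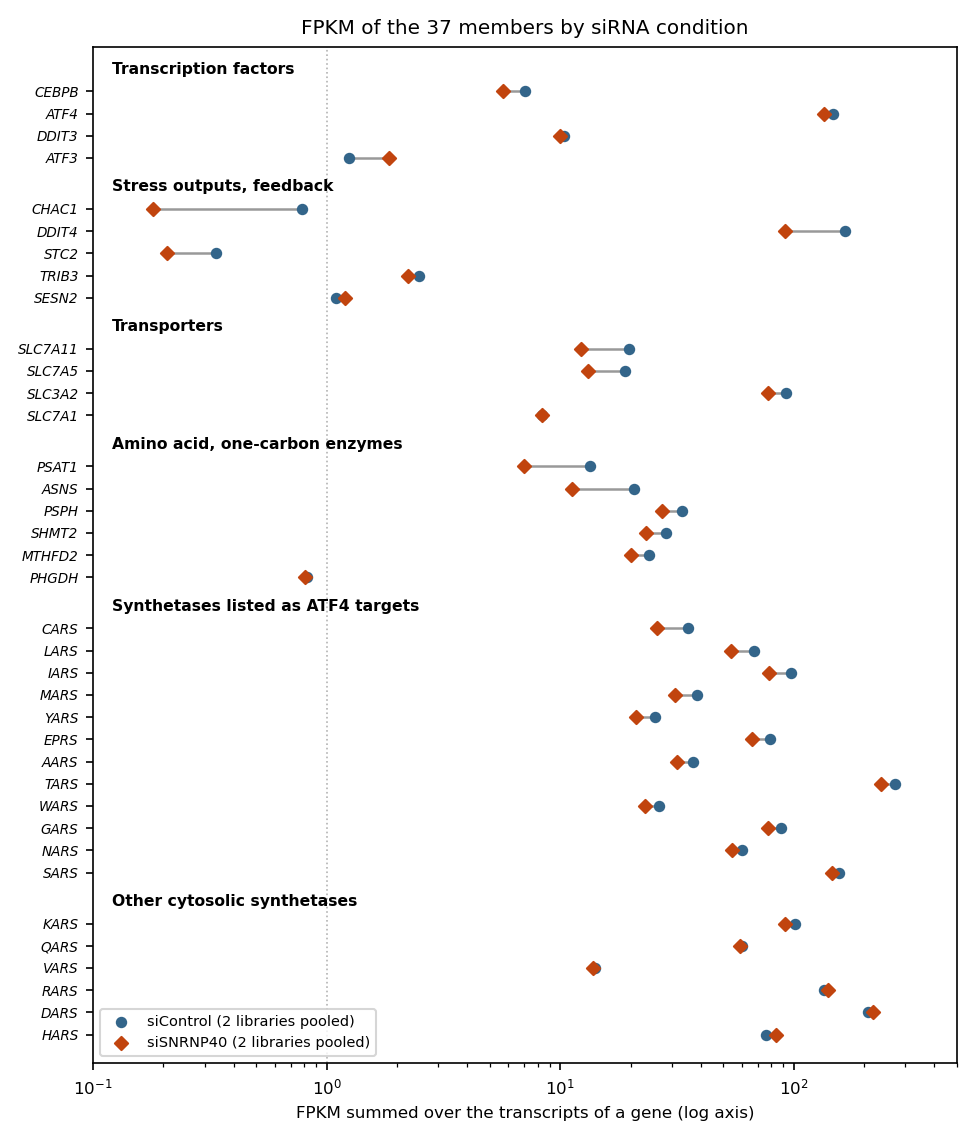
Summed FPKM of the 37 members (log axis) in siControl (circles) and siSNRNP40 (diamonds), each point 1 value pooled over 2 libraries, with no error bars and the filter at an FPKM of 1 dotted. The diamonds lie left of the circles for all 12 synthetases listed as ATF4 targets, from CARS (35.4 and 25.9) to SARS (157 and 145).

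Among the transcription factors, the summed mRNA of ATF4 and DDIT3 differed little, and that of CEBPB and ATF3 differed more. ATF4 itself was abundant, with an FPKM of 147 in siControl and 135 in siSNRNP40, a log2 fold change of -0.12. DDIT3, which encodes the pro-apoptotic factor CHOP, had 10.4 and 9.99. CEBPB, a bZIP partner of ATF4, had 7.04 and 5.71. These 3 were lower after depletion, with log2 fold changes from -0.30 to -0.06. ATF3, an early stress-induced repressor and target of ATF4, went the other way, from 1.24 to 1.85 (log2 fold change 0.58). Its 7 listed transcripts each averaged below 1 FPKM. The leading transcript in siControl had 0.711 there and nearly 0 in siSNRNP40, and the leading one in siSNRNP40 had 1.52 there and 0.0722 in siControl. The ATF3 sum thus rests on low values that were divided differently among its transcripts.

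Among stress outputs and feedback genes, DDIT4 stood out. DDIT4 encodes REDD1, an inhibitor of mTORC1 that is induced by ATF4 and also by hypoxia and glucocorticoids. It was listed as 1 transcript with an FPKM of 166 in siControl and 91.9 in siSNRNP40 (log2 fold change -0.86), and 1.14% of genes past the filter were as low or lower. TRIB3, a pseudokinase that inhibits ATF4, had 2.48 and 2.23. SESN2, a leucine sensor upstream of mTORC1, had 1.10 and 1.197. These latter 2 genes were close to the filter and nearly level. CHAC1, which degrades glutathione and is among the most inducible ATF4 targets, had 0.787 and 0.180. STC2, a secreted glycoprotein, had 0.335 and 0.207. CHAC1 and STC2 were thus lower as well, but at FPKM values where no fold was read.

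Of the 4 amino acid transporters, 3 were lower and 1 was level. SLC7A11, the light chain of the cystine-glutamate exchanger, had an FPKM of 19.6 in siControl and 12.3 in siSNRNP40, a log2 fold change of -0.68. SLC7A5, the light chain of the large neutral amino acid transporter LAT1, had 18.9 and 13.1, a log2 fold change of -0.53. Both were single transcripts, and 2.21% and 4.38% of genes were as low or lower. SLC3A2, the heavy chain that both of these light chains need to reach the cell surface, was more abundant and differed less, with 93.1 and 77.9 (-0.26). SLC7A1, the cationic amino acid transporter CAT1, was level at 8.34 in each condition. Reads of SLC7A5 can be shared with its pseudogene copies, of which SLC7A5P1 had 1.72 and 1.32 and SLC7A5P2 had 6.49 and 8.19.

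Among the members past the filter, the gene sums of PSAT1 and ASNS had the lowest log2 fold changes. ASNS had an FPKM of 20.7 in siControl and 11.2 in siSNRNP40 (log2 fold change -0.89), and 0.965% of genes were as low or lower. PSAT1, the aminotransferase of serine synthesis, had 13.4 and 6.99 (-0.94), with 0.795% of genes as low or lower, but its most expressed transcript alone was at -0.38, and that of ASNS at -0.73. PSPH, the phosphatase that completes serine synthesis, had 33.1 and 27.2 (-0.29). The first enzyme of that route, PHGDH, was barely expressed, at 0.826 and 0.804. The serine pathway was thus represented mainly by its later steps in these cells. SHMT2, which passes the carbon of serine to folate in mitochondria, had 28.3 and 23.3 (-0.28). MTHFD2, the next mitochondrial folate enzyme, had 24.02 and 20.02 (-0.26). The sums of all 5 enzymes past the filter were lower, with a median log2 fold change of -0.29, whereas the most expressed transcript of SHMT2 was higher (0.26).

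The synthetases that are usually listed as ATF4 targets were lower in 12 of 12 cases, while 49.5% of all genes were lower. Their log2 fold changes ran from -0.45 to -0.11, with a median of -0.25. CARS, for cysteine, had the lowest value, with an FPKM of 35.4 in siControl and 25.9 in siSNRNP40 (-0.45). LARS, for leucine, had 67.6 and 53.9 (-0.33). IARS, for isoleucine, had 97.7 and 78.1 (-0.32). MARS, for methionine, had 38.6 and 31.0 (-0.32). These 4 genes had the lowest values of the 12. YARS, for tyrosine, had 25.6 and 21.0 (-0.28). EPRS, a fused enzyme for glutamate and proline, had 79.3 and 66.5 (-0.25). AARS, for alanine, had 37.2 and 31.5 (-0.24). In these last 3 genes the FPKM after depletion differed from siControl by -17.7% to -15.3%. TARS, for threonine, was the most abundant of the members, with 272 and 236 (-0.21). WARS, for tryptophan, had 26.6 and 23.1 (-0.20). GARS, the glycine enzyme of cytosol and mitochondria, had 87.9 and 77.2 (-0.19). The smallest differences were those of NARS, for asparagine, with 59.9 and 54.2 (-0.15), and SARS, for serine, with 157 and 145 (-0.11).

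Each of these differences taken alone was ordinary, since between 6.17% (CARS) and 32.3% (SARS) of all genes were as low or lower. What the 12 genes share is their direction. The lists were chosen with earlier results of these data known, so this shared direction is no independent evidence. The 12 genes were all expressed well, with mean FPKM from 23.3 to 254. Over the 4052 genes averaging 20 FPKM or more, the median log2 fold change was -0.012. The summed FPKM of the 12 genes was 985 in siControl and 843 in siSNRNP40.

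The other 6 member synthetases lay around 0, with 3 higher and 3 lower and a median log2 fold change of 0.017. HARS, for histidine, had an FPKM of 76.3 in siControl and 84.3 in siSNRNP40 (0.14). DARS, for aspartate, had 208 and 218 (0.071), and RARS, for arginine, had 135 and 140 (0.059). VARS, for valine, had 14.1 and 13.9 (-0.024), and QARS, for glutamine, had 60.0 and 58.7 (-0.032). KARS, the lysine enzyme of cytosol and mitochondria, was the lowest of them, with 101 and 91.9 (-0.14). In the order of all 18 synthetases, 11 of the 12 listed targets were below KARS, and 5 of the 6 others were above SARS, the highest of the listed targets. KARS and SARS were close to each other, and without replicates their order cannot be judged. FARSA and FARSB, the subunits of the phenylalanine enzyme, which are not on the member list, both had a log2 fold change of -0.044.

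**Figure D2:**
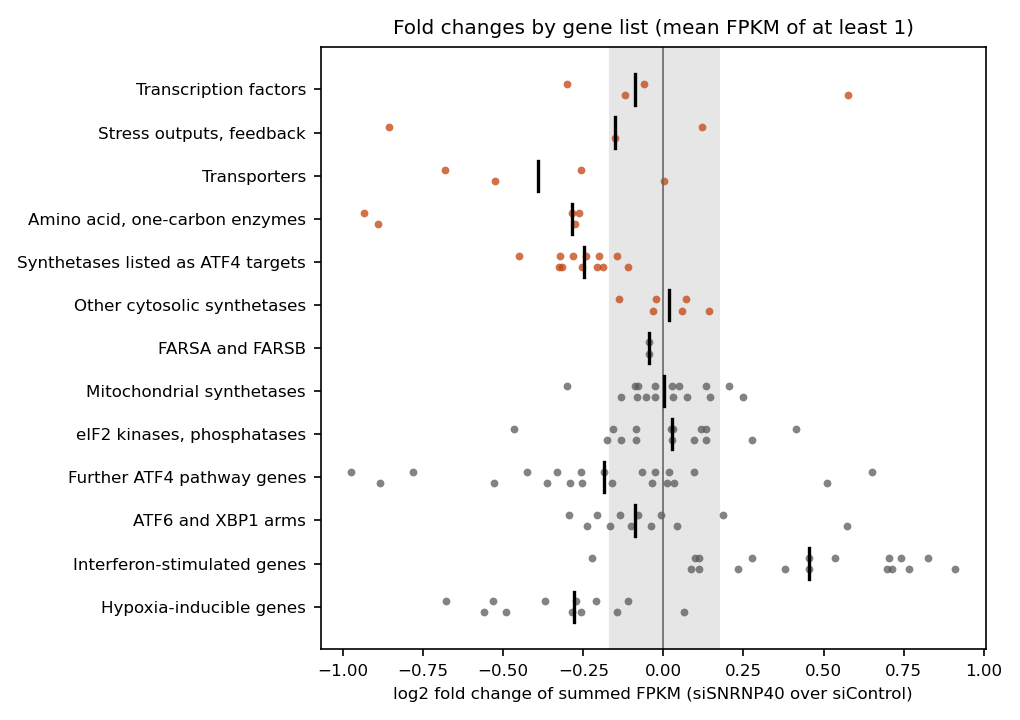
Log2 fold change of summed FPKM (siSNRNP40 over siControl) for genes averaging 1 FPKM or more, with 1 point per gene, members in orange, comparison lists in grey, list medians as black lines and the interquartile range of all 12334 genes shaded (-0.17 to 0.17). The listed ATF4-target synthetases (median -0.25) lie left of 0, and the other cytosolic synthetases (0.017) and mitochondrial synthetases (0.00065) straddle it.

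The synthetases of mitochondria, which are encoded by separate nuclear genes, offer a comparison with the same amino acids. The 16 genes reported here had a median log2 fold change of 0.00065, with 8 lower and 8 higher and a range from -0.30 (CARS2) to 0.25 (EARS2). Only CARS2 and IARS2 averaged 20 FPKM or more, as each of the 12 listed ATF4-target synthetases did, and the median of this pair was -0.22. For 10 listed ATF4-target synthetases a partner with the same amino acid was measured, and the log2 fold change of the cytosolic enzyme was the lower one in 10 of 10 pairs, by a median of 0.24 (0.12 for WARS and NARS to 0.53 for LARS). Of 3 such pairs among the other synthetases, the cytosolic enzyme was lower in 1, that of VARS. The mitochondrial partner had the lower mean FPKM in each of these pairs. Since all 12 listed targets were lower and the mitochondrial genes lay around 0, the pairs are no separate evidence.

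**Figure D3:**
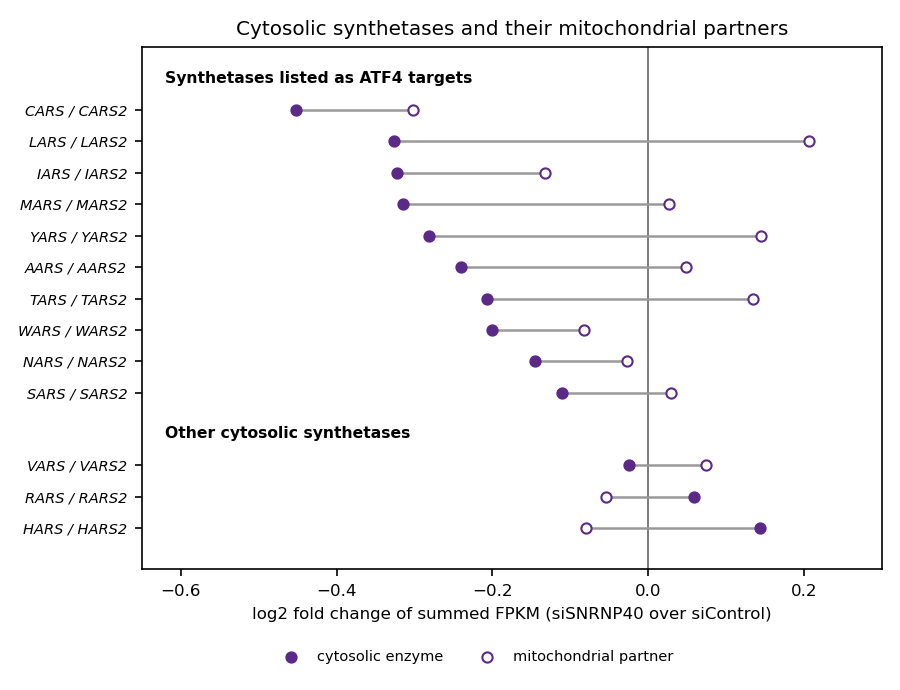
Log2 fold change of summed FPKM (siSNRNP40 over siControl) of cytosolic synthetases (filled) and of the mitochondrial enzyme for the same amino acid (open), each from 1 pooled value per condition. The filled point is the left one in all 10 pairs of listed ATF4 targets and in 1 of the 3 other pairs.

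Several of these enzymes are held together in the multisynthetase complex, a cytosolic assembly built on the scaffold proteins AIMP1, AIMP2 and EEF1E1. Within the complex the listed ATF4 targets EPRS, IARS, LARS and MARS had a median log2 fold change of -0.32 and a range from -0.33 to -0.25. The remaining members of the complex, DARS, KARS, QARS and RARS, had a median of 0.014 and a range from -0.14 to 0.071. The scaffold proteins ranged from -0.038 (AIMP2) to 0.25 (EEF1E1). The range of the listed targets thus did not overlap those of the other genes of the complex, in pooled values of few genes. Between 11.1% (LARS) and 16.0% (EPRS) of all genes were as low as these listed targets or lower. The lists were chosen with earlier results of these data known, so the separation is no independent evidence. The listed targets outside the complex had a median of -0.20.

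Members with and without the core in a promoter window were also set side by side. The 11 members with a match that passed the filter had a median log2 fold change of -0.24, and 9 of them were lower. The 16 without a match had a median of -0.14, and 13 of them were lower. Of the listed ATF4-target synthetases, the 7 with a match had a median of -0.24 and the 3 with a window but no match had -0.20. Among genes that are no members, the 221 with a match had a median of 0.023, and the 8206 without had -0.0048. Outside the members, genes whose windows hold these letters thus did not have a lower median than genes whose windows lack them.

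Single transcripts were examined because SNRNP40 belongs to the splicing machinery, and because isoform estimates divide the fragments of a gene by a statistical model. The members have 89 listed transcripts, 52 of them averaging 1 FPKM or more, and 22 members are listed with 1 transcript only. Of the 51 with a finite fold change, 1 had a log2 fold change above 1, against 5.5% of all such transcripts, and 4 were below -1, against 5.04%. The 1 higher transcript was a minor one of SLC3A2, and the 4 lower ones were minor transcripts of ASNS, PSAT1, SHMT2 and DDIT3. Each averaged below 5 FPKM, and they are named after their values were seen.

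In ASNS the 3 main transcripts were all lower, with FPKM of 10.1, 8.05 and 1.99 in siControl and 6.08, 4.58 and 0.518 in siSNRNP40. The lower sum of ASNS thus did not come from a single isoform. PSAT1 was different. Its main transcript had 9.09 and 6.99, and its other transcript had 4.29 in siControl and 0.000187 in siSNRNP40. With the main transcript alone the log2 fold change of PSAT1 was -0.38 rather than -0.94. In SHMT2 the main transcript was higher after depletion, with 15.8 and 18.9, while a minor one went from 7.75 to 0.223. The main transcript of SHMT2 therefore had a log2 fold change of 0.26, opposite in sign to the sum. In DDIT3 the leading transcript had 4.69 and 8.97, the next had 2.32 and 1.02, and a further one was listed at 2.46 in siControl and at 0 in siSNRNP40. The leading transcript held 45.0% of the summed FPKM of DDIT3 in siControl and 89.8% in siSNRNP40, with the sum itself nearly level. The shifts of PSAT1, SHMT2 and DDIT3 were larger than those of the synthetases with several transcripts. There the share of the leading transcript differed by at most 4.85 percentage points (CARS), and that of any transcript by at most 7.01 (WARS).

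**Figure D4:**
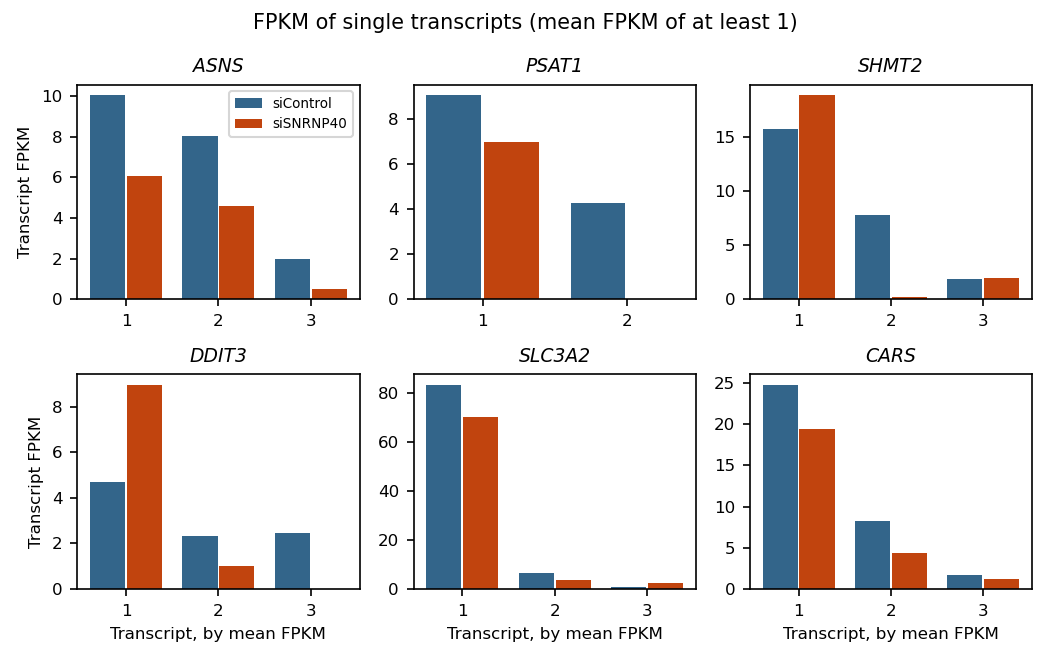
FPKM of single transcripts averaging 1 FPKM or more, in siControl (blue) and siSNRNP40 (orange) for 6 members, numbered by mean FPKM, each bar 1 pooled value. All 3 ASNS transcripts are lower in siSNRNP40, whereas in PSAT1, SHMT2 and DDIT3 a minor transcript is near or at 0 in siSNRNP40.

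The spans of some members, introns included, overlap other genes in the annotation (GENCODE 44 on GRCh37). DDIT3 and MARS lie on opposite strands of chromosome 12 and share 982 bases at chr12:57910371-57911352, and the table reports both under the same locus. MARS also shares 13370 bases with ARHGAP9 on the opposite strand, which includes its start site. HARS and HARS2 lie head to head on chromosome 5 and share 108 bases. Whether strand was used in counting is not given in the sources used here, so reads in these stretches may have been assigned to either gene.

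Genes for eIF2 and its regulators had a median near 0, with single genes that differed more. The 15 genes for eIF2 kinases, the kinase activator GCN1L1, eIF2 and eIF2B subunits and eIF2 phosphatase subunits had a median log2 fold change of 0.027, and none passed 0.5 in either direction. The widest values were those of EIF2S3, an eIF2 subunit (157 and 114, -0.47), and PPP1R15A, the inducible phosphatase subunit GADD34 (50.1 and 66.8, 0.41). Of 26 further genes of the ATF4 pathway 21 passed the filter, with 15 lower and 6 higher and a median of -0.19. Among them 4 were below -0.5 and 2 above 0.5. The lowest were NUPR1, a stress-induced chromatin protein (1.81 and 0.922, -0.98), and VEGFA, the angiogenic growth factor (119 and 64.5, -0.88). The highest were GADD45A, a growth arrest gene (20.9 and 32.8, 0.65), and ATF5, a bZIP factor (2.78 and 3.96, 0.51). Genes of the wider pathway thus lay on both sides of 0, with more of them lower.

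Genes of neighbouring stress programs were mostly lower as well. The 12 genes of the ATF6 and XBP1 arms of the unfolded protein response had a median log2 fold change of -0.090, with 9 lower, and CRELD2 alone passed 0.5, at 0.57. Of 6 genes past the filter for folate and serine metabolism beside the members, 4 were lower, with a median of -0.21. Of 14 hypoxia-inducible genes, a list added after the values of DDIT4 and VEGFA were seen, 12 passed the filter, 11 of these were lower, and the median was -0.28. SLC2A1, the glucose transporter GLUT1, had 101 and 68.8 (-0.56), and PFKFB4, a regulator of glycolysis, had 6.51 and 4.06 (-0.68). Lower levels of hypoxia-inducible genes thus accompanied the lower levels of DDIT4 and VEGFA, and their part in the values of the members was not tested. Of 9 NRF2 target genes, a list added in the same way that includes SLC7A11, 7 were lower, with a median of -0.12, and HMOX1 was the only one besides SLC7A11 below -0.5.

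Interferon-stimulated genes were higher in the same libraries. Of 18 such genes 17 were higher after depletion and 8 were above 0.5, with a median log2 fold change of 0.46. ISG15 had an FPKM of 122 in siControl and 217 in siSNRNP40, and IFIH1, the RNA sensor MDA5, had 12.8 and 24.1. WARS is itself inducible by interferon gamma, and it was lower (-0.20), while EIF2AK2, the RNA-activated eIF2 kinase PKR, was level at 28.7 and 29.2. The part of the interferon response in the values of the members was not tested. Since the 2 libraries of a condition are pooled, SNRNP40 depletion and the action of a single siRNA or library cannot be told apart. The libraries received different oligonucleotides and so came from separate transfections. The labels do not say whether these were made on separate days or passages of the cells.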

How the data were processed

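The authors sequenced 4 libraries, 2 per condition, made from total RNA after removal of ribosomal RNA. They trimmed reads with cutadapt 1.2.1, mapped them to hg19 with TopHat 2.0.8, built a merged transcript set (Cufflinks, cuffmerge), and ran Cuffdiff 2.0.2. The FPKM values they deposited are its estimates for single transcripts, 1 pooled value per condition, so the FPKM carry no replicate error and depth is unknown. The authors' columns of log2 fold changes, test statistics, p-values and q-values, and their call of significance, hold their own comparison across the 4 libraries and were not used.

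FPKM was summed per gene symbol, genes averaging 1 FPKM or more with a value above 0 in both conditions were kept, and log2 ratios were taken without a pseudocount. The linear model planned for values per library could not be run, so no test was made here, and lists are described by counts and medians beside all genes. Thresholds were a log2 fold change of 0.5 and of 1, the latter after the absolute log fold change of the study, whose base is not stated there. The members and lists were chosen with earlier results of these data known, so a shared direction within a list is no independent evidence. Promoter windows came from RefSeq (GRCh38.p14) and were placed in GRCh37 by exact match, and overlaps from GENCODE 44 on GRCh37. All members are named, and genes of other lists only when beyond 0.5 (at most 2 in each direction) or where a sentence says so. 1 mitochondrial synthetase is not reported here and was left out of its list and of the pairs. The step that calls genes past 0.5 was tested on simulated data with planted changes well above that threshold and little noise. Smaller differences and list medians were not simulated. Alternatives changed the filter, pseudocount, scaling, summing and contigs. Python 3.11.15, numpy 2.4.6, pandas 2.3.3 and matplotlib 3.10.9 were used.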

Additional observations from a re-analysis of the deposited data

How the results depend on the processing

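No paired analysis was possible because both libraries of a condition were merged into 1 FPKM column without replicate numbers. Leaving out replicates was not possible for the same reason. A median was counted as moved at a difference of at least 0.1 on the log2 scale and a count at more than 1.5 times.

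The median of the members stayed between -0.25 and -0.19 in all settings, that of the listed ATF4-target synthetases between -0.27 and -0.22 and that of the other cytosolic synthetases between 0.014 and 0.059. Without ASNS, PSAT1, DDIT4, SLC7A11 and SLC7A5, a choice made after their values were seen, the members had a median of -0.19. The 5 members below -0.5 became 1, DDIT4, at an average FPKM of at least 20 (chosen after seeing the data). The other 4 were left out there. Members below -0.5 numbered 4 with a pseudocount of 1 and with upper-quartile scaling, where SLC7A5 was at -0.495 and -0.496. There were 7 without a filter and 4 with the most expressed transcript, where PSAT1 was at -0.38. The 1 member above 0.5, ATF3, became 0 at an average FPKM of at least 5 or 20 and with a pseudocount of 1. Past an absolute value of 1 there was 1 member, CHAC1, without a filter. The median of stress outputs and feedback, -0.15, was -0.69 without a filter and -0.86 at an average FPKM of at least 5 or 20, where DDIT4 alone remained. At an average FPKM of at least 20 the median of the transporters was -0.26, from SLC3A2 alone, and that of mitochondrial synthetases was -0.22, from 2 genes. Member transcripts above 1 numbered 3 without a filter and 0 at an average FPKM of at least 5 or with a pseudocount of 1, and those below -1 numbered 12 without a filter and 0 at an average FPKM of at least 5.

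Of 257 values of single members under these settings 251 moved by less than 0.1. With the most expressed transcript in place of the sum, DDIT3 was at 0.94, SHMT2 at 0.26, ASNS at -0.73, PSAT1 at -0.38 and WARS at -0.32, and with a pseudocount of 1 ATF3 was at 0.35. DDIT3 and SHMT2 thus took the other sign.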

Other observations

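The gene structures of the synthetases differ between the lists. In the canonical transcripts of GENCODE 44 the listed ATF4-target synthetases have a median of 20 exons (11 to 34) and a median gene length of 42.9 kb, and the other cytosolic synthetases have a median of 15.5 exons (13 to 30) and 19.8 kb. The part of exon number in their lower FPKM was not tested.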
